A study of Mus musculus with 12 samples.

Results

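The 10 genes described here form the growth hormone (GH) and insulin-like growth factor (IGF) axis of the liver: Ghr, Stat5b, Igf1, Igfals, Igfbp1, Igfbp2, Igfbp3, Socs2, Socs3 and Bcl6. They were found by their gene name in the array annotation, over probes outside the array's control spots, a rule that uses no signal, though the 10 names were proposed with earlier results of these data known. They have 21 of the 55681 probes, 19 of which passed the filter on dim probes, and all 10 are among the 18101 genes tested. Liver RNA of F2 males of the C3H/HeN strain, reared to about 74 weeks, was measured on 12 Agilent arrays with 1 dye, Cy3. In the arsenite line the F0 dams drank water containing 85 ppm sodium arsenite on days 8 to 18 of gestation, in the control line they drank plain tap water, and neither F1 mice (mated at 10 weeks) nor F2 mice of either line received arsenite. The 4 groups had 3 arrays each: from the arsenite line, tumours, non-tumour liver and normal liver; from the control line, non-tumour liver. The labels do not define how normal liver differs from non-tumour liver, and they do not say whether samples of a group came from separate animals, so p-values describe only how these samples spread, which may be technical. Tumours and normal liver of the control line were not analysed here.

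Growth hormone from the pituitary binds its receptor on hepatocytes, and the kinase JAK2 on that receptor phosphorylates STAT5B, which enters the nucleus and induces Igf1, Igfals, Socs2 and other genes. Liver secretes most of the IGF1 in blood, where it circulates bound to IGF-binding proteins, in large part in a complex of IGF1, IGFBP3 and the acid-labile subunit made from Igfals. SOCS proteins damp the receptor's signal, BCL6 is a repressor that binds many STAT5 sites, and IGFBP1 is induced in liver by fasting and low insulin through FOXO factors.

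The probes that the results on isoforms turn on, and the single Igfals probe, have the following sequences from the deposited files, 5′ to 3′, with mm9 positions from the array annotation. The Igfals probe is shown whole. Of the Ghr and Igf1 probes the first 30 bases are shown, because these are annotated to different transcripts of a gene and changed by different amounts in tumours. The probes were not placed in exons, so which transcripts each of them reads was not checked.
Igfals, chr17:25018251-25018310, plus strand: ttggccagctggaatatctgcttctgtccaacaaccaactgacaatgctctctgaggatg
Ghr transcript variant 2 (NM_001048178), chr15:3277543-3277602, minus strand: cttgtgggcacctgcattcatatgcacata
Ghr transcript variant 1 (NM_010284), chr15:3268107-3268166, minus strand: atctctttcatgcaggagagacagtgaaaa
Igf1 transcript variant 2 (NM_184052), chr10:87378456-87378515, plus strand: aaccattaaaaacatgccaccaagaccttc
Igf1 transcript variant 1 (NM_010512), chr10:87393581-87393640, plus strand: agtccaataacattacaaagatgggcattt

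Promoters, running from 250 bases before to 50 bases after an annotated start, were taken from RefSeq (GRCm38.p6), where 9 of the 10 genes had 15 promoters in all. The motifs searched, on both strands, were the STAT motif TTCNNNGAA, which is its own reverse complement, the FOXO motif GTAAACA, and the insulin response motif CAAAACA. Of 32851 promoters of this length, 8.30% held the STAT motif, 3.65% the FOXO motif and 6.28% the insulin response motif. The promoters of Igfbp1, Igfals and Bcl6 are shown since Igfbp1 and Igfals moved furthest of the 10 genes in tumours and Bcl6 varied most outside them; capitals mark the motif matches. A match is a string of letters and no measured binding site.
Igfbp1, chr11:7197537-7197836, plus strand, capitals the insulin response motif 108 bases before the start: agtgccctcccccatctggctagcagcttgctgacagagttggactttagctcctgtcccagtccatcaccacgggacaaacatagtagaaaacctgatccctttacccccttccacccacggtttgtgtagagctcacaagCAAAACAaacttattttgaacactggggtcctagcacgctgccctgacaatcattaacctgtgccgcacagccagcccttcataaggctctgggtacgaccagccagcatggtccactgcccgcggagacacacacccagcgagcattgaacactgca
Igfals, chr17:24877981-24878280, plus strand, capitals the FOXO motif on the other strand 242 bases before the start and the STAT motif 58 bases before it: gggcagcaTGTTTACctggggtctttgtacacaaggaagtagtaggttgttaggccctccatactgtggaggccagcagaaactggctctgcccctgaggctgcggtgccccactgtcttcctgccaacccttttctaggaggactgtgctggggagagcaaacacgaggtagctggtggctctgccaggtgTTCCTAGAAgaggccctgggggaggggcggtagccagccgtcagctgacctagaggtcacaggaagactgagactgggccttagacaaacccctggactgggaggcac
Bcl6, chr16:23981234-23981533, minus strand, capitals 3 STAT motifs that begin 168, 122 and 88 bases before the start: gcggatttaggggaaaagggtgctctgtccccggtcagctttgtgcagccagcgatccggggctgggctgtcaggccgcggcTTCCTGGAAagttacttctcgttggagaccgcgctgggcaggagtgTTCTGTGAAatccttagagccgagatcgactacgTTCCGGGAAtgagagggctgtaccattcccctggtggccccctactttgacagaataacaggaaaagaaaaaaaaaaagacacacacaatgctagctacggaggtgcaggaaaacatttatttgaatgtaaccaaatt
A second Bcl6 promoter and a second Igfals promoter held 1 STAT motif each, at 118 and 236 bases before their starts, and the Socs3 promoter held 1 at 154 bases before its start. No match to the 3 motifs was found in the promoters of Ghr, Igf1, Igfbp2, Igfbp3 and Stat5b.

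Values below are log2 of the processed signal minus the log2 of that array's 75th percentile, so 0 is the 75th percentile and 1 unit is a factor of 2, and levels of different probes are not comparable. Between 21834 and 25401 probes per array were well above background, no spot was saturated, and the number of arrays limits the precision. Both non-tumour groups shared a slide, while normal liver and tumours each had a slide of their own, so slide and group cannot be told apart in the other 3 comparisons. The median of all genes was -0.13 in tumours minus non-tumour liver and -0.15 in tumours minus normal liver, and differences are to be read against it. Genes passing the test split into 36.4% higher and the rest lower in the first of these comparisons, against 47.7% higher with quantile normalization, and into 35.7% higher in the second, against 48.3% with quantile normalization and 59.5% with a median shift. In bulk tissue, fewer cells of a type and less RNA per cell cannot be told apart.

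In tumours the receptor, the transducer, the hormone and its carrier subunit were all lower than in non-tumour liver of the same line, and Igfbp1 was far higher. By limma with Benjamini-Hochberg adjustment over all genes, at an adjusted p under 0.05, 4 of the 10 genes fell (Ghr, Stat5b, Igf1 and Igfals) and 1 rose (Igfbp1), while Igfbp2, Igfbp3, Socs2, Socs3 and Bcl6 did not pass. Of all 18101 genes, 47.1% passed in this comparison, 17.1% higher and 30% lower, so the share of the 10 genes that passed lies near the background. Groups did not overlap for 5 of the 10, against 56.5% of all genes. The median difference of the 10 genes was -0.71. The comparison of tumours with normal liver uses the same tumour arrays; there the same 4 genes fell and Igfbp1 rose, against a background of 48.1% of genes passing, 17.2% higher and 31% lower, groups did not overlap for 4 of the 10, against 58.8% of genes, and the median of the 10 was -0.43.

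**Figure D1:**
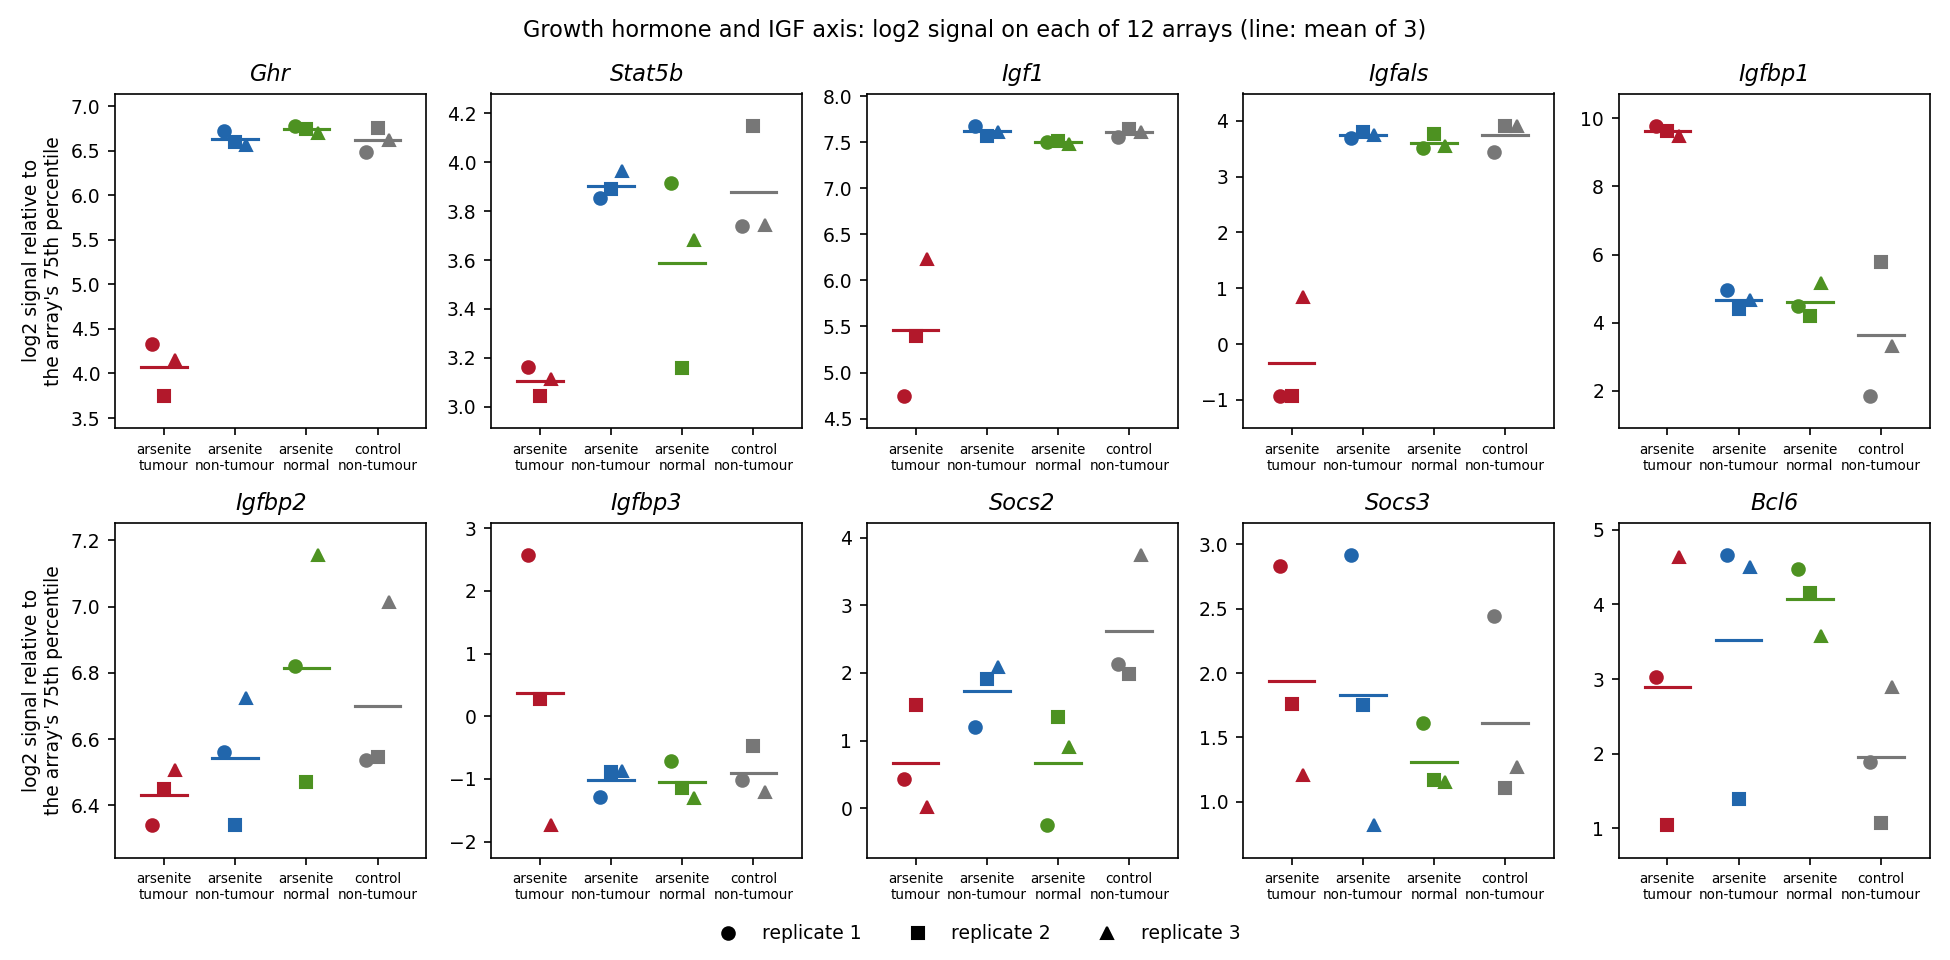
Log2 signal of each of the 10 genes (vertical axis, relative to the array's 75th percentile, scaled separately per panel) on 12 arrays in 4 groups; points are arrays with replicate numbers by shape and lines are means of 3. Igfbp1 lies at 9.47 to 9.78 in tumours, above all other arrays, while Ghr, Igf1 and Igfals lie below all other arrays there.

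Ghr encodes the growth hormone receptor and, by alternative splicing, a soluble binding protein. Its probe for transcript variant 2 read 4.33, 3.75 and 4.15 in tumours, against 6.73, 6.59 and 6.56 in non-tumour liver, 6.78, 6.75 and 6.69 in normal liver of the arsenite line, and 6.49, 6.75 and 6.62 in non-tumour liver of the control line. All 3 tumours were low and the 9 other arrays lay close together, with a log2 range of 0.29. The difference from non-tumour liver was -2.55 ± 0.14 (SE), 5.86-fold lower (limma adjusted p = 4.9e-07), and that from normal liver -2.66 ± 0.14, 6.33-fold lower (limma adjusted p = 3.9e-07).

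The probe for Ghr transcript variant 1 was lower in tumours as well, though by less. It read 4.14, 3.82 and 4.18 in tumours, against 5.89, 5.92 and 5.78 in non-tumour liver and 6.0, 5.93 and 5.98 in normal liver. Tumours did not overlap the other groups. The difference was -1.82 ± 0.12 from non-tumour liver (3.52-fold lower) and -1.92 ± 0.12 from normal liver (3.79-fold lower). The gap between the differences of the probes was 0.73 against non-tumour liver and 0.74 against normal liver (limma diffSplice across all genes with several probes, adjusted p of the gene 0.011 and 0.010), a test added after the data were seen. Such unequal change was called in 10.5% of 4490 genes with several probes in the first comparison and 10.3% in the second. Mouse Ghr yields by alternative splicing a membrane receptor and a shorter, soluble growth hormone-binding protein, and the probes lie 9436 bases apart. Which of these products each probe reports was not checked here, so the larger fall cannot be assigned to the membrane receptor.

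Stat5b, the transducer, was moderately lower in tumours. It read 3.16, 3.04 and 3.11 in tumours, against 3.86, 3.89 and 3.96 in non-tumour liver and 3.91, 3.16 and 3.68 in normal liver. Tumours lay below all non-tumour arrays, but 1 normal liver overlapped them. The difference was -0.80 ± 0.18 from non-tumour liver (1.74-fold lower, limma adjusted p = 0.0040) and -0.48 ± 0.18 from normal liver (1.39-fold lower, limma adjusted p = 0.046). The second call was lost when any of 10 of the 12 arrays was left out, among them normal liver 1 (-0.32, adjusted p = 0.17), and under 9 of the other settings, such as quantile normalization (-0.34, adjusted p = 0.15). A second Stat5b probe 142 bases away followed the same order of arrays in tumours, at 2.69, 2.54 and 2.63, against 3.39, 3.36 and 3.40 in non-tumour liver.

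Igf1, the hormone itself, was lower in every tumour, by unequal amounts. The probe that stands for the gene read 4.75, 5.40 and 6.23 in tumours, against 7.68, 7.57 and 7.61 in non-tumour liver, 7.50, 7.51 and 7.49 in normal liver and 7.56, 7.65 and 7.62 in control non-tumour liver. Tumour 1 was lowest and tumour 3 highest, while the 9 other arrays spanned a log2 range of only 0.19. The difference was -2.17 ± 0.28 from non-tumour liver (4.49-fold lower, limma adjusted p = 0.00012) and -2.04 ± 0.28 from normal liver (4.12-fold lower, limma adjusted p = 0.00018). The SD was 0.74 in tumours and 0.05 in non-tumour liver, and the fit pools the groups, which narrows the SE here. Over the alternatives the limma adjusted p reached 0.015 in both comparisons.

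Of the 5 Igf1 probes, 4 are annotated to transcript variant 1 and fell, by 2.17 to 2.83 on the log2 scale against non-tumour liver; a pair of these share 40 bases and are not independent. The probe for transcript variant 2, which lies 15125 bases upstream of the variant 1 probe shown above, had no accession match in the RefSeq table used for names. It read 1.52, 1.91 and 1.78 in tumours, against 2.13, 2.65 and 2.0 in non-tumour liver and 2.85, 2.12 and 2.26 in normal liver. Tumours were lower without overlap, but the gap was small. Its difference was -0.53 ± 0.22 from non-tumour liver (limma adjusted p = 0.074, one test per probe) and -0.67 ± 0.22 from normal liver (limma adjusted p = 0.028). Its difference lay 1.95 above that of the other Igf1 probes against non-tumour liver (diffSplice, adjusted p of the probe 3.9e-05) and 1.67 above it against normal liver (diffSplice, adjusted p of the probe 0.00034). The diffSplice adjusted p of the gene, the value given for Ghr, was 0.00037 and 0.0028.

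**Figure D2:**
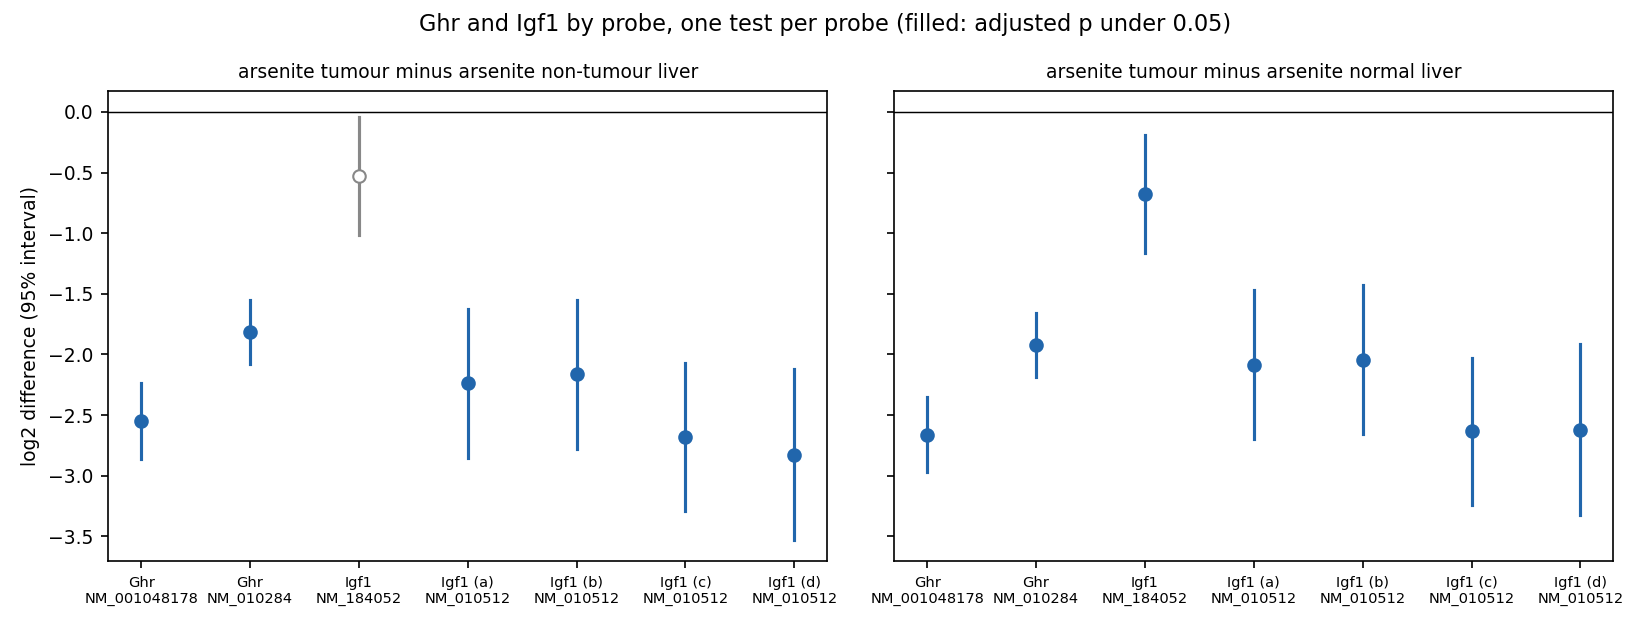
Log2 difference with its 95% interval (vertical axis) of the 2 Ghr and 5 Igf1 probes in tumours against non-tumour liver (left) and against normal liver (right), with the transcript each probe is annotated to; (a) to (d) run in genome order. The variant 2 probe of Igf1 sits at -0.53 and -0.67, above every other probe of the gene.

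Igfals, which encodes the acid-labile subunit that holds IGF1 and IGFBP3 in the large complex of blood, fell most of the 10 genes. It read -0.93, -0.92 and 0.84 in tumours, against 3.69, 3.80 and 3.74 in non-tumour liver, 3.52, 3.76 and 3.55 in normal liver, and 3.45, 3.91 and 3.91 in control non-tumour liver. No tumour came near the other arrays, and tumour 3 was the least low, as it was for Igf1. The difference was -4.08 ± 0.39 from non-tumour liver (17.0-fold lower, limma adjusted p = 1.7e-05) and -3.95 ± 0.39 from normal liver (15.5-fold lower, limma adjusted p = 2.2e-05). With an SD of 1.02 in tumours and 0.06 in non-tumour liver, pooling the groups narrows the SE here too. Over the alternatives the limma adjusted p reached 0.0075 against non-tumour liver and 0.0078 against normal liver. Its probe was well above background on all 12 arrays.

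Among the binding proteins, Igfbp1 rose, Igfbp2 did not pass, with a narrow interval, and Igfbp3 differed between tumours. Igfbp1, whose product sequesters IGF1 and is raised in liver in fasting and stress, read 9.78, 9.63 and 9.47 in tumours, against 4.95, 4.42 and 4.68 in non-tumour liver, 4.51, 4.21 and 5.16 in normal liver, and 1.85, 5.78 and 3.32 in control non-tumour liver. The 3 tumours lay close together at the top, whereas the control livers were spread over 3.93 log2 units. The difference was 4.94 ± 0.75 from non-tumour liver (30.8-fold higher, limma adjusted p = 0.00036) and 5.0 ± 0.75 from normal liver (32.0-fold higher, limma adjusted p = 0.00034). The SD was 0.15 in tumours, 0.27 in non-tumour liver, 0.48 in normal liver and 1.99 in control non-tumour liver. The fit pools the groups, so the SE here carries the spread of the control livers and is widened by it.

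Igfbp2, an abundant binding protein in the blood, had values close together in all groups. It read 6.34, 6.45 and 6.51 in tumours, against 6.56, 6.34 and 6.72 in non-tumour liver and 6.82, 6.47 and 7.15 in normal liver. The groups overlapped in both comparisons. The difference was -0.11 from non-tumour liver (95% interval -0.52 to 0.31, limma adjusted p = 0.66) and -0.38 from normal liver (95% interval -0.80 to 0.03, limma adjusted p = 0.12), and without normal liver 2 the difference from normal liver passed at -0.55 (adjusted p = 0.033).

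Igfbp3, the main carrier of IGF1 in the large complex and in rat liver a product of non-parenchymal cells, read 2.57, 0.27 and -1.74 in tumours, against -1.28, -0.89 and -0.87 in non-tumour liver and -0.72, -1.14 and -1.31 in normal liver. Tumours 1 and 2 were above every other array of the study and tumour 3 was below every one. The difference was 1.38 ± 0.80 from non-tumour liver (limma adjusted p = 0.18) and 1.42 ± 0.80 from normal liver (limma adjusted p = 0.17). It passed without tumour 3, at 2.44 (adjusted p = 0.0053) and 2.48 (adjusted p = 0.0048), and was 0.28 and 0.32 without tumour 1. Igfbp1 and Igfbp3 are neighbours on chromosome 11, with probes 4152 bases apart on opposite strands, and in tumour 3 Igfbp1 read 9.47 while Igfbp3 was at its lowest.

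The negative regulators showed no difference past the threshold in tumours, with wide intervals. Socs2, a STAT5 target whose product damps growth hormone receptor signalling, read 0.44, 1.53 and 0.01 in tumours, against 1.21, 1.91 and 2.09 in non-tumour liver and -0.25, 1.36 and 0.91 in normal liver. Tumours overlapped both groups, though each of the 3 was below the non-tumour liver of its own replicate number. The difference was -1.08 from non-tumour liver (95% interval -2.34 to 0.19, limma adjusted p = 0.15; 0.12 and 0.089 with the replicate number as a block over 12 and 6 arrays) and -0.01 from normal liver (95% interval -1.28 to 1.26, limma adjusted p = 0.99). The 3 Socs2 probes past the filter read within 0.62 log2 units of each other on the other arrays, but on non-tumour liver 3 they read 2.09, 3.01 and 1.74, and another probe 27061 to 27463 bases away was well above background on no array.

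Socs3, induced by IL-6 through STAT3 and by growth hormone, read 2.83, 1.76 and 1.21 in tumours, against 2.92, 1.75 and 0.82 in non-tumour liver and 1.61, 1.17 and 1.15 in normal liver. Replicate 1 was the highest in each of the 4 groups, also in control non-tumour liver (2.45, against 1.11 and 1.27), and all groups overlapped. The SD was 0.82 in tumours and 1.05 in non-tumour liver, and the difference was 0.11 (95% interval -1.13 to 1.35, limma adjusted p = 0.89) against non-tumour liver and 0.62 (95% interval -0.62 to 1.87, limma adjusted p = 0.38) against normal liver.

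Bcl6, a repressor that is repressed in turn by STAT5 in mouse liver, read 3.02, 1.04 and 4.64 in tumours, against 4.66, 1.40 and 4.50 in non-tumour liver and 4.48, 4.16 and 3.58 in normal liver. Both tumours and non-tumour liver held 1 low array, replicate 2 in each, and normal liver none. In control non-tumour liver replicate 2 was the lowest as well, at 1.07, against 1.88 and 2.90. The difference was -0.62 (95% interval -2.84 to 1.60, limma adjusted p = 0.64) against non-tumour liver and -1.17 (95% interval -3.39 to 1.04, limma adjusted p = 0.36) against normal liver.

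**Figure D3:**
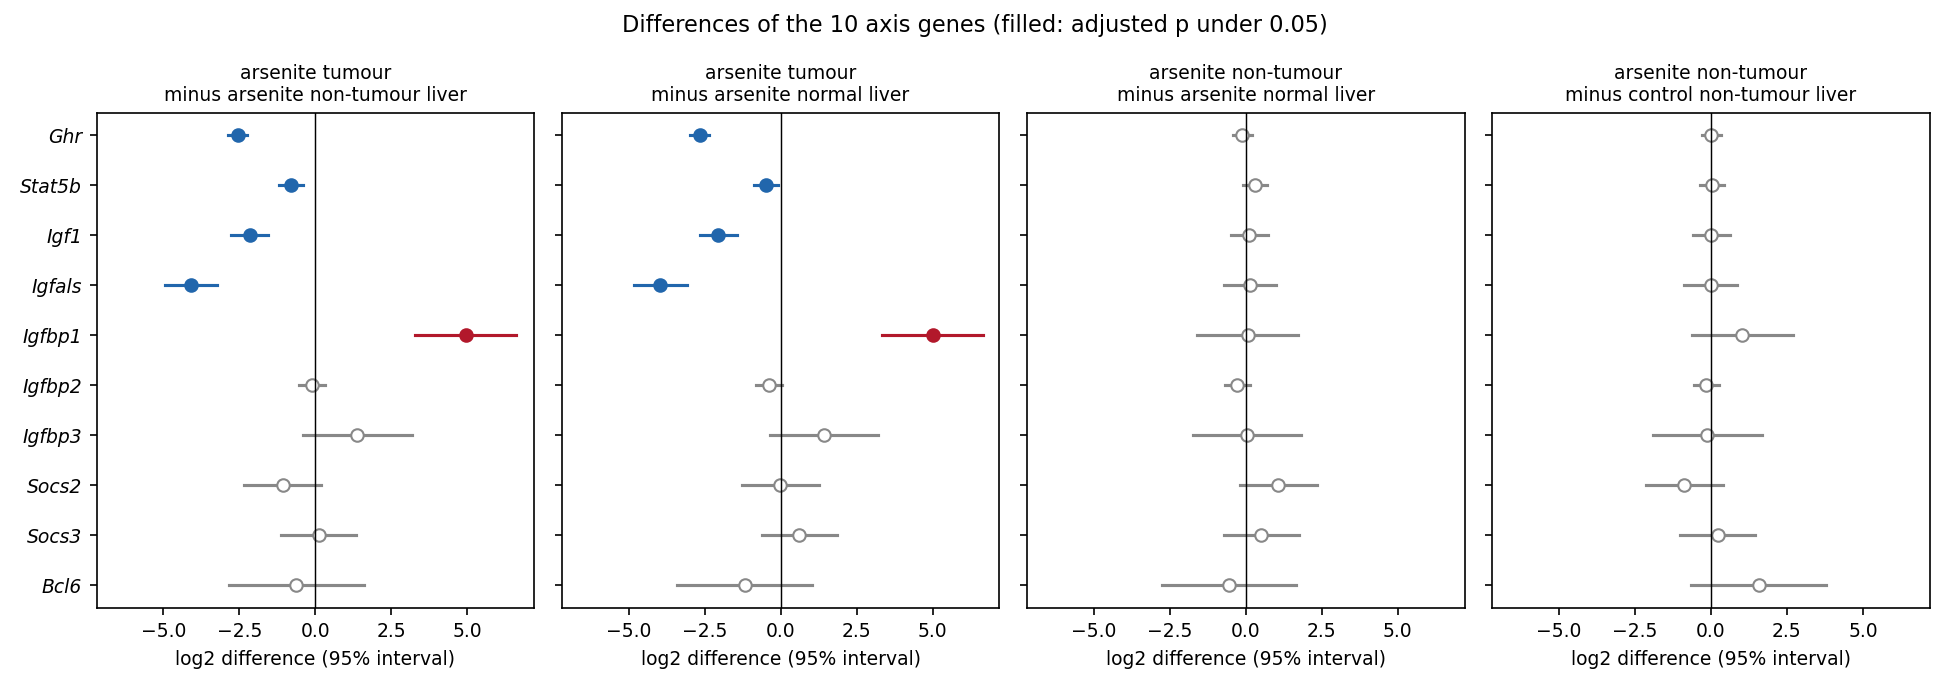
Log2 difference with its 95% interval (horizontal axis) of the 10 genes in the 4 comparisons; filled points passed at an adjusted p under 0.05, red higher and blue lower. In both tumour comparisons Ghr, Stat5b, Igf1 and Igfals are filled on the left and Igfbp1 on the right, and no point is filled in the comparisons without tumours.

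Outside tumours, none of the 10 genes passed the test between non-tumour and normal liver of the arsenite line, where 0 of 18101 genes passed (0% of genes), nor between arsenite and control non-tumour liver, where 1 gene passed (0.00552% of genes). At an unadjusted limma p under 0.05, 0 of the 10 passed in either comparison, against 1238 and 1020 of all genes. Against normal liver, by the probe that stands for each gene, the only member whose groups did not overlap was Igf1, at 0.12 higher (95% interval -0.49 to 0.74), against 15.2% of all genes without overlap. Among the other probes, groups did not overlap for the variant 1 probe of Ghr (-0.11) and a further variant 1 probe of Igf1 (0.15). Of the 10 differences between non-tumour and normal liver, that of Socs2 was largest, at 1.07 (95% interval -0.20 to 2.33, limma adjusted p = 0.78).

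The line comparison, arsenite against control non-tumour liver, was made on 1 slide and is the only one that the slide does not divide. By the probe that stands for each gene, no member had groups that did not overlap, against 10.5% of all genes. Among the other probes, groups did not overlap for a further variant 1 probe of Igf1 (-0.15). Ghr differed by 0.01 (95% interval -0.30 to 0.32), Igf1 by 0.01 (95% interval -0.60 to 0.63), Igfals by -0.01 (95% interval -0.87 to 0.85) and Stat5b by 0.03 (95% interval -0.37 to 0.42). Wider intervals held for Bcl6 at 1.57 (-0.65 to 3.79), Igfbp1 at 1.03 (-0.63 to 2.69) and Socs2 at -0.88 (-2.15 to 0.39), and the limma adjusted p was 0.9999 for all 10 genes. Because the fit pools the spread over all 4 groups, the intervals of Igf1, Igfals and Igfbp3 here also carry the spread between tumours. In the tumour comparisons the same pooling narrows the intervals of these genes.

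The 10 genes differed widely in how much they varied among the 9 arrays outside tumours. Igf1 had an SD of 0.07 and was steadier than all but 2.50% of the genes tested, and Ghr had an SD of 0.10, against a median of 0.18 over all genes. Igfals, Igfbp2, Stat5b and Igfbp3 followed with SDs of 0.17, 0.27, 0.27 and 0.28, at percentiles 44, 70, 71 and 72 of all genes. Bcl6, Igfbp1 and Socs2 had SDs of 1.42, 1.15 and 1.09, at percentiles 99.8, 99.6 and 99.4 of all genes, and Socs3 had 0.69, at percentile 96.5. In fold terms the lowest and highest of these 9 arrays differed 16.0-fold for Socs2, 15.2-fold for Igfbp1 and 12.05-fold for Bcl6, but 1.14-fold for Igf1. These shares are a description over single livers, with no test.

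The widely varying genes peaked in 3 different livers. Bcl6 read 1.88, 1.07 and 2.90 in control non-tumour liver, where Socs2 read 2.13, 1.98 and 3.74 and Socs3 read 2.45, 1.11 and 1.27. Socs2 was lowest in normal liver 1 and highest in control liver 3, Igfbp1 was lowest in control liver 1 and highest in control liver 2, Bcl6 was lowest in control liver 2, and Socs3 was lowest in non-tumour liver 3. Bcl6 and Socs3 were both highest in non-tumour liver 1. Of the 45 pairs of genes over the 9 arrays, 1 had an exact permutation p under 0.05 by Pearson correlation and 1 by Spearman, and 0 passed after Benjamini-Hochberg adjustment. The first was Ghr with Igfbp1 (r = 0.69, exact p = 0.031, adjusted p = 0.86; rho = 0.47, exact p = 0.21, adjusted p = 0.90), with r = 0.49 without the 2 arrays farthest from the Ghr median and r = 0.81 over the 6 arrays of the shared slide (exact p = 0.047). The second was Stat5b with Igfbp3 (r = 0.60, exact p = 0.084, adjusted p = 0.86; rho = 0.78, exact p = 0.017, adjusted p = 0.78), with r = 0.72 without 2 arrays and r = 0.85 over the shared slide (exact p = 0.028). Socs2 and Bcl6 gave r = -0.45 (exact p = 0.25, adjusted p = 0.86; rho = -0.42, exact p = 0.27, adjusted p = 0.90), with r = -0.54 without 2 arrays and r = -0.16 over the shared slide (exact p = 0.86).

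**Figure D4:**
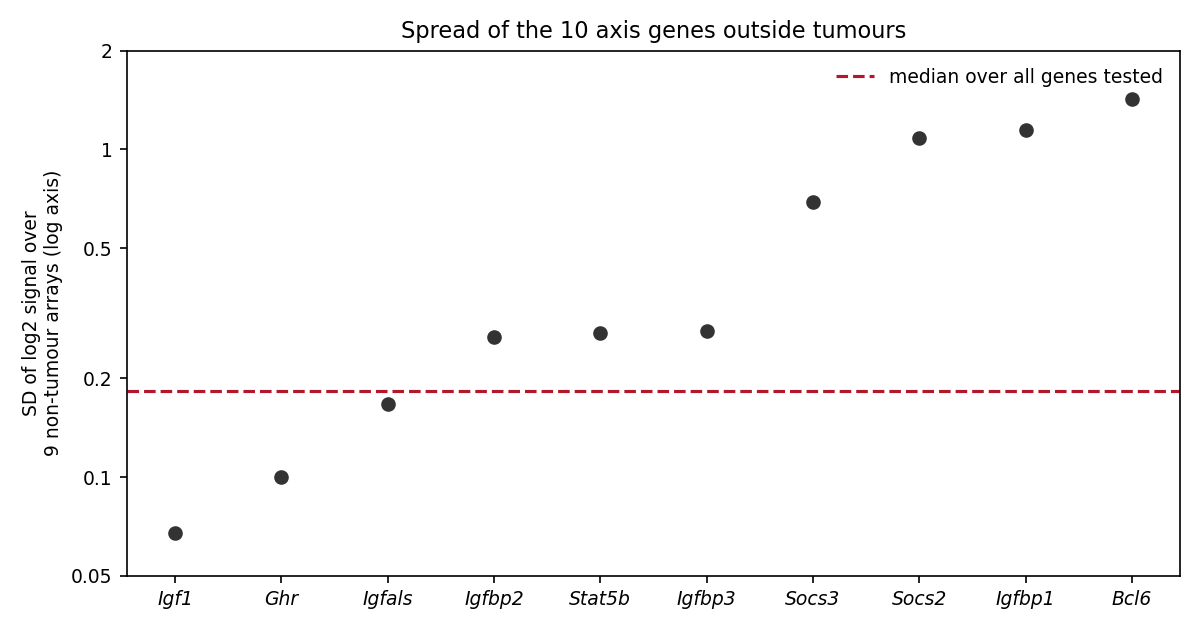
SD of log2 signal over the 9 arrays outside tumours (vertical axis, log scale) for the 10 genes in rising order, with the median over all genes tested as a dashed line at 0.18. Igf1, Ghr and Igfals lie below the line, and Socs3, Socs2, Igfbp1 and Bcl6 lie furthest above it.

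Of 20 other genes between the growth hormone receptor and STAT5, 18 could be tested, and in tumours against non-tumour liver 2 rose and 1 fell, with a list median of -0.03. In this comparison 17.1% of all genes rose and 30% fell, a larger share than in this list. Prlr, the prolactin receptor, was lower in every tumour at 1.94, 1.33 and 1.48, against 3.75, 3.65 and 4.25 in non-tumour liver, a difference of -2.29 (limma adjusted p = 6.5e-05). Sh2b2, a JAK2-binding adaptor, rose by 1.63 (limma adjusted p = 0.0011) and Socs1, another suppressor of cytokine signalling, by 1.25 (limma adjusted p = 0.047). Jak2, the receptor's kinase, differed by 0.04 (limma adjusted p = 0.71) and Stat5a, the second STAT5, by -0.08 (limma adjusted p = 0.76). Cish, a STAT5 target like Socs2, read 2.80, 1.69 and -0.10 in tumours, 2.39, 3.11 and 0.18 in non-tumour liver, 2.12, 0.76 and 0.85 in normal liver and 4.46, 3.08 and 3.95 in control non-tumour liver, and did not pass in any comparison. Between arsenite and control non-tumour liver it differed by -1.93 (limma unadjusted p = 0.045, adjusted p = 0.87).

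Of 18 genes for other IGF ligands, receptors and binding proteins, 7 could be tested, and 1 rose and 2 fell in tumours against non-tumour liver (median 0.01). Among all genes 17.1% rose and 30% fell. Igf2 had no group in which it was well above background on all 3 arrays. Igfbp5, another IGF-binding protein, read -2.90, -2.62 and -3.35 in tumours, against -0.03, 0.40 and -0.21 in non-tumour liver (-3.01, limma adjusted p = 3.7e-05), and Igfbp4 fell by 0.96 (limma adjusted p = 8.4e-06). Igf2r, which clears IGF2, rose and read 3.42, 2.97 and 2.86 in tumours, against 1.80, 1.96 and 1.91 in non-tumour liver (1.19, limma adjusted p = 4.9e-05). Igf1r, the IGF1 receptor, differed by 0.01 (limma adjusted p = 0.97) and Insr, the insulin receptor, by 0.36 (limma adjusted p = 0.084).

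Downstream of the insulin and IGF1 receptors, 2 of 23 tested genes of the IRS, PI3K, AKT and FOXO relay rose and 10 fell in tumours against non-tumour liver, with a median of -0.19. Among all genes 17.1% rose and 30% fell, so the share of the relay that passed lies near the background of 47.1%. Those that fell included the kinase Akt2 (-0.53, limma adjusted p = 0.00029), the receptor-binding inhibitor Grb14 (-0.86, limma adjusted p = 0.00058), and the PI3K subunits Pik3cb (-0.61) and Pik3r1 (-0.88). Trib3, a stress-induced pseudokinase that binds AKT, rose by 1.90 (limma adjusted p = 0.0060) and is named here after its value was seen. Foxo1 (-0.11, limma adjusted p = 0.41), Irs1 (-0.19, limma adjusted p = 0.57) and Irs2 (-0.31, limma adjusted p = 0.59) did not pass.

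Of 12 other liver genes under control of FOXO1 or fasting, 1 rose, 5 fell and 6 did not pass in tumours against non-tumour liver (median -0.14, close to that of all genes), while in tumours against normal liver 0 rose and 6 fell. Among all genes 17.1% rose and 30% fell in the first comparison, and 17.2% rose and 31% fell in the second. G6pc, which releases glucose from glucose 6-phosphate, read 4.44, 2.51 and 3.32 in tumours, against 6.84, 6.69 and 5.84 in non-tumour liver (-3.03, limma adjusted p = 0.0012), and Pck1, the first committed enzyme of gluconeogenesis, fell by 1.94 (limma adjusted p = 0.00084). Tat, a tyrosine-degrading enzyme, fell by 2.63 and Angptl4, an inhibitor of lipoprotein lipase, by 2.29. Lpin1, a phosphatidate phosphatase, rose by 1.20 (limma adjusted p = 0.015).

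Among 20 tested genes of the IL-6 to STAT3 response, to which Socs3 belongs, 2 rose and 6 fell in tumours against non-tumour liver (median -0.36). The shares over all genes were 17.1% higher and 30% lower. Lcn2, an acute-phase lipocalin, read 8.46, 7.45 and 7.27 in tumours, against 3.41, 2.41 and 2.11 in non-tumour liver (5.08, limma adjusted p = 0.00018), and the receptor Osmr rose by 1.35 (limma adjusted p = 0.0028). The acute-phase proteins Orm1 and Orm2 fell by 3.03 and 3.04, and the fibrinogen chain Fgg by 0.41. Il6ra, the IL-6 receptor, differed by -0.41 (limma adjusted p = 0.28).

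Of 14 genes known to depend on the pulsatile growth hormone of male mice, 13 fell and 1 rose in both tumour comparisons, with a median of -4.47 against non-tumour liver and -4.65 against normal liver. Among all genes 30% fell and 17.1% rose against non-tumour liver, and 31% fell and 17.2% rose against normal liver. Hsd3b5, a male-specific steroid dehydrogenase, read 1.92, -0.51 and -0.71 in tumours, against 7.66, 7.69 and 5.29 in non-tumour liver (-6.65, limma adjusted p = 0.00013). Serpina12, the adipokine vaspin, was the member that rose, at 1.96 (limma adjusted p = 0.0025). The list was chosen with earlier results of these data known, and its direction is no independent evidence. By limma none of the 6 lists had a called gene in either comparison without tumours. At an unadjusted p under 0.05, 2 of 20 genes of the IL-6 list and 1 of 12 FOXO1 or fasting genes passed between non-tumour and normal liver. Between the lines, 3 of 18 receptor to STAT5 genes, 1 of 23 relay genes and 2 of 12 FOXO1 or fasting genes did. The lists not named had 0, and of all 18101 genes 1238 and 1020 passed in these comparisons.

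**Figure D5:**
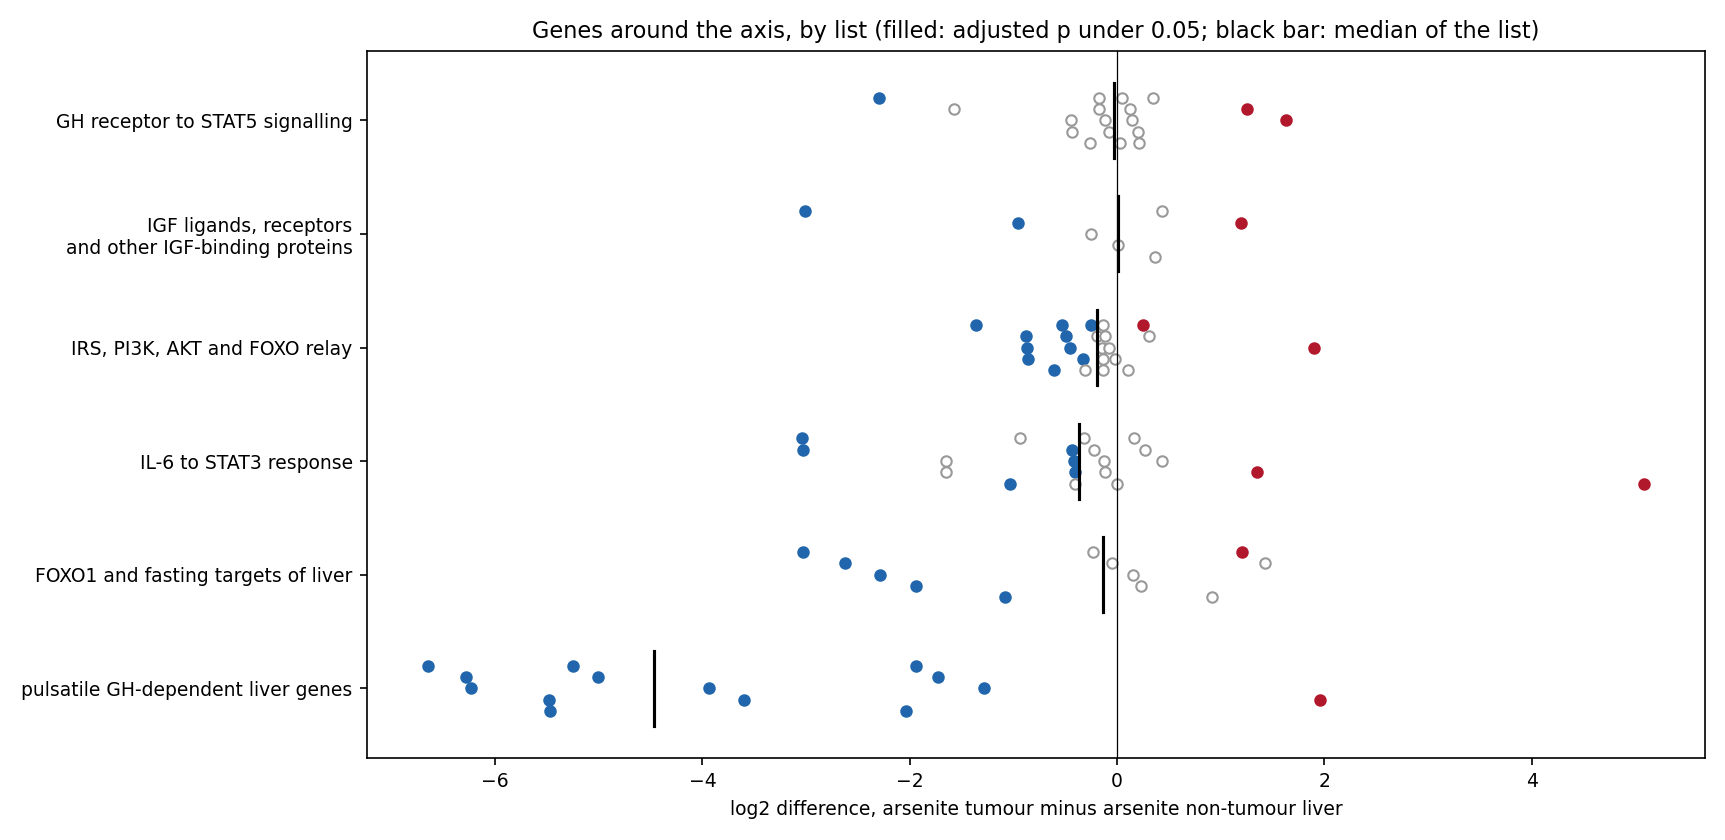
Log2 difference between tumours and non-tumour liver of the arsenite line (horizontal axis) for genes of 6 lists around the axis (rows); filled red points rose, filled blue points fell, open points did not pass, and black bars are list medians. Pulsatile GH-dependent genes have a median of -4.47, and the other lists have medians between -0.36 and 0.01.

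Markers of other liver cells moved between the same groups, and their part in the differences above was not tested. Counts of markers below are for tumours against non-tumour liver, where 17.1% of all genes rose and 30% fell. Hepatocyte markers had 1 gene higher and 3 lower of 9 tested in tumours against non-tumour liver. All 9 were well above background in every group. Alb differed by -0.05 (limma adjusted p = 0.72). Apoa1 rose by 1.17 (limma adjusted p = 0.00031) and Cps1 fell by 2.13 (limma adjusted p = 0.00083), both named after their values were seen. In tumours against normal liver 1 of these 9 was higher and 6 lower, where 17.2% of all genes rose and 31% fell. The summed signal of the 9, in units of the array's 75th percentile, was 7047 to 8602 in tumours, against 8247 to 9030 in non-tumour liver, 8938 to 10472.5 in normal liver and 8836 to 9595 in control non-tumour liver. Kupffer cell and macrophage markers had 1 higher and 11 lower of 14, summing to 117 to 173 in tumours, against 161 to 221 in non-tumour liver, 133 to 179 in normal liver and 127 to 214 in control non-tumour liver. The marker that rose, Mpeg1, named after its values were seen, read 5.53, 6.02 and 6.31 in tumours, against 4.23, 3.92 and 4.61 in non-tumour liver. It added more to the tumour sums than any other of the 14. Stellate cell and fibroblast markers had 4 higher and 8 lower of 13, summing to 45.4 to 91.3 in tumours, against 134 to 159 in non-tumour liver, 143 to 164 in normal liver and 137 to 184 in control non-tumour liver. Dcn and Ecm1, named after their values were seen, carried most of that sum and fell by 2.05 and 1.24. Among the 4 that rose were Acta2 (1.57), Col1a1 (2.11) and Col1a2 (0.89). Des was well above background on no array of tumours or non-tumour liver. Endothelial markers had 3 higher and 5 lower of 15, summing to 91.5 to 118 in tumours, against 133 to 154 in non-tumour liver, 120 to 129 in normal liver and 130 to 140 in control non-tumour liver. Of 6 markers of T and NK cells 1 rose and 1 fell, summing to 129 to 176 in tumours, against 31.3 to 58.4 in non-tumour liver, 53.0 to 69.7 in normal liver and 46.5 to 51.2 in control non-tumour liver. The marker that rose, Cd4, averaged 7.08 in tumours and 5.20 in non-tumour liver (1.88, limma adjusted p = 0.00026) and carried most of that sum, while Cd3e differed by -0.09 (limma adjusted p = 0.66); both are named after their values were seen. Of 4 markers of B and plasma cells 2 rose, summing to 3.01 to 5.18 in tumours, against 1.57 to 2.56 in non-tumour liver, 1.86 to 3.09 in normal liver and 1.76 to 2.91 in control non-tumour liver. Of 5 bile duct markers 0 passed, also at an unadjusted limma p under 0.05.

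Genes whose profile over the 12 arrays was most like that of a member were named by Pearson correlation, as a description; points share slides, and the tumours carry most of the spread. For Ghr the closest named gene was Sult2a8 (r = 0.997), for Igf1 Krt80 (r = 0.996) and Gnmt (r = 0.994), for Igfals Baat (r = 0.998) and Mup5 (r = 0.995), for Stat5b Asap2 (r = 0.967) and for Igfbp1 Tubb5 (r = 0.978). Over the 9 arrays outside tumours the closest to Socs3 were Serpina3n (r = 0.939) and Itih3 (r = 0.932), to Bcl6 Plekha6 (r = 0.949), and to Stat5b again Asap2 (r = 0.980). For all 10 members the closest match over these 9 arrays had an r between 0.926 (Igfbp2) and 0.980 (Stat5b). Each is the highest of 18101 genes over only 9 points, and how high r would run without any relation was not tested.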

How the data were processed

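The deposited scanner files hold, per the file headers, a background-subtracted processed signal per spot, an intensity in arbitrary units that the authors did not scale between arrays. The headers name Agilent Feature Extraction 10.7.3.1, while the submitters' processing notes name 12.0.3.1. The authors' deposited value table was checked to be a linear ratio, that signal divided by each array's 75th percentile over all spots, and served as an alternative. Per the labels' protocols, RNA was column-purified with DNase and 100 ng was labelled.

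Signals were put on the log2 scale minus the log2 75th percentile over 59305 non-control spots, outlier spots were left out, and spots of a probe were averaged. A probe entered if every one of a group's 3 arrays, in 1 group or more, gave a signal well above background (24144 probes). Each of 18101 genes was represented by its brightest probe on average. Names came from RefSeq accession, symbol or synonym, otherwise from the file. One fit of 12 arrays was made with limma 3.58.1 in R 4.3.3 (8 residual degrees of freedom) with Benjamini-Hochberg adjustment across genes. Correlations used exact permutation in Python 3.11.15. The fit was tested on simulated data with 200 changed genes.

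Residuals of equal replicate numbers in tumours and non-tumour liver had correlations of 0.145, 0.14 and 0.23, and those of unequal numbers -0.16 to -0.004. Residuals are taken from the group mean, so these sets of correlations are not independent. The correlations met the rule used for pairing, though the labels do not say that equal numbers mark paired samples. The main fit left the pairing out, and fits with the replicate number as a block served as alternatives. No other comparison met that rule. The named genes are the 10 members, up to 6 called genes with the smallest p of each other list, key receptors and kinases, and the 3 most alike by correlation. Members, lists and tests were chosen with earlier results of these data known. Comparing protein sequences was planned and not run. Some genes that the naming rule gives are not reported here.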

Additional observations from a re-analysis of the deposited data

Results flagged for a closer look

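A second Igfbp3 probe, annotated to an Ensembl transcript and left out of the comparisons by the filter on dim probes, was well above background on 1 of 12 arrays. That array was tumour 1, where it read -2.18 on the log2 scale, above its values on all 9 arrays outside tumours. It read -5.50 and -5.34 in tumours 2 and 3, against -5.03, -4.20 and -5.24 in non-tumour liver, -4.70, -5.08 and -5.24 in normal liver and -5.0, -5.10 and -5.07 in control non-tumour liver. Tumour 1 was also the array with the highest value of the Igfbp3 probe used in the report, 1355 bases away.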

How the results depend on the processing

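The count of members called in tumours was 5 to 6 against non-tumour liver and 4 to 6 against normal liver over the alternatives, and 0 in both comparisons without tumours under every alternative run. Of 1020 recomputed member differences, 949 kept their direction and side of the threshold. Ghr, Igf1, Igfals and Igfbp1 kept theirs in both tumour comparisons under all alternatives, and so did Stat5b against non-tumour liver. With the replicate number as a block for the pairing, 5 members were called against non-tumour liver and no member's call there changed. Against normal liver, the block of 12 arrays took the call from Stat5b (adjusted p = 0.070; 0.089 with the block of 6 arrays) and gave one to Igfbp2 (-0.38, adjusted p = 0.037). Leaving out single arrays, Stat5b against normal liver ranged over -0.69 to -0.32 (adjusted p 0.0036 to 0.17), Igfbp2 over -0.55 to -0.21, and Igfbp3 over 0.28 to 2.44 against non-tumour and 0.32 to 2.48 against normal liver. The slide as a block gave no value, since each comparison lies within 1 slide or has no slide in common.

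All differences that turned sign were uncalled under either setting, and the cause was not tested. In tumours minus non-tumour liver, Igfbp2 was 0.16 (quantile) and 0.050 (percentile over detected probes), and Socs3 -0.23 (array weights). In tumours minus normal liver, Socs2 was 0.049 (quantile), 0.13 (detected probes) and 0.21 (median shift). In non-tumour minus normal liver, Igfbp3 was -0.023 (normexp), Ghr 0.17 and Igfbp2 0.013 (median shift), and Igfbp1 -0.048 (array weights). In arsenite minus control non-tumour liver, Igfals was 0.0057 (quantile), 0.079 (normexp) and 0.23 (median shift), Igfbp2 0.088 and Igfbp3 0.13 (median shift), Igf1 -0.099 (mean over probes), and Ghr -0.031 and Stat5b -0.068 (array weights). Leaving out single arrays gave ranges across 0: in tumours minus non-tumour liver, Socs3 -0.40 to 0.65 and Bcl6 -1.68 to 0.31; in tumours minus normal liver, Socs2 -0.47 to 0.33; in non-tumour minus normal liver, Socs3 -0.028 to 1.02, Bcl6 -1.12 to 0.51, Igfbp1 -0.15 to 0.32 and Igfbp3 -0.087 to 0.21; and in arsenite minus control non-tumour liver, Ghr -0.059 to 0.073, Igf1 -0.014 to 0.038, Igfals -0.17 to 0.065, Stat5b -0.043 to 0.16, Socs3 -0.33 to 0.72, Igfbp2 -0.25 to 0.00059 and Igfbp3 -0.27 to 0.10.

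Over all genes, calls against normal liver numbered 14219 without the filter on dim probes, against 8711 with it, and those against non-tumour liver 8181 without it, against 8528 with it; the cause was not tested. Calls outside tumours ranged over 0 to 5 between non-tumour and normal liver and 0 to 6 between the lines. The 3 arrays per group and the wide spread of Socs2, Socs3, Bcl6 and Igfbp1 limit what can be seen for these genes.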
